A study of Mus musculus with 12 samples.

Results

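The 9 genes described here are 6 transcription factors of the epithelial-mesenchymal transition (EMT), Snai1, Snai2, Twist1, Twist2, Zeb1 and Zeb2, and 3 markers of the mesenchymal state, Vim, Cdh2 and S100a4. They were chosen by name, out of 23704 gene names in the files of the normal and tumor samples and 23691 in those of the injected mice. Of the 9 genes, 8 had a row of their own name. Zeb2 was listed in a row joined with the microRNA Mir5129, so its values are those of the joined row. RNA-seq libraries were made from poly(A) RNA of 12 samples, 3 in each of 4 groups, all from mice 12 weeks old of the FVB background. The Normal group was mammary gland of wild type mice, and each of its replicates mixed abdominal and inguinal glands of 3 mice. The Tumor group was thoracic gland tumor of untreated MMTV-PyVT mice, 1 mouse per replicate. The DMSO and C646 groups were mammary tumors of MMTV-PyVT mice injected with the solvent DMSO or with C646, an inhibitor of the acetyltransferase p300, and the labels give 1 mg/kg for both groups. For the solvent they do not say what this dose refers to, and it may be that of C646. The Tumor, DMSO and C646 groups all carry the PyVT transgene, the polyoma virus middle T oncogene under the MMTV promoter, which is active mainly in mammary epithelium. Every sample was a whole piece of tissue, so lower RNA of a gene can come from fewer cells of a type or from less RNA per cell, and these cannot be told apart.

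During EMT, epithelial cells lose their junctions and polarity and gain the shape and motility of mesenchymal cells. Snai1 and Snai2 (zinc finger proteins), Twist1 and Twist2 (basic helix-loop-helix proteins) and Zeb1 and Zeb2 (zinc finger and homeodomain proteins) are the classical transcription factors of this process, and the Snail and Zeb proteins bind E-boxes and repress epithelial genes such as Cdh1, which encodes E-cadherin. Vim encodes the intermediate filament vimentin, Cdh2 encodes N-cadherin, and S100a4 encodes a calcium binding protein also called fibroblast specific protein. In mammary tissue these genes are used as well by fibroblasts, endothelial cells and leukocytes, which are not of epithelial origin.

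Promoter windows of RefSeq on GRCm38.p6, the build of mm10, were found for 6 of the 9 genes (Snai1, Twist1, Twist2, Zeb2, Vim and S100a4), and the 250 bases before each start site were searched for the E-box CANNTG, which reads the same on both strands. It was held by 66.2% of 32536 such windows of all genes. The form CACCTG, to which Snail and Zeb proteins are known to bind and which is itself one of the CANNTG boxes, was held on either strand by 17.3%. The window of Snai1 had 1 box, a CACCTG that begins 126 bases before the start site, and the windows of Twist1, Twist2, Vim, S100a4 and the 4 of Zeb2 had 0. The window of the epithelial gene Epcam, which encodes a cell surface adhesion protein, had 2 boxes, both of this form, 1 on each strand. A match describes letters only, and binding was not measured. The windows printed are those of Snai1, the EMT factor that was not called between normal and tumor tissue, of Twist1 and the marker S100a4, which were lower in tumor, and of Epcam, which was higher. All are on the + strand, written 5′ to 3′, at chr2:167537945-167538194, chr12:33957421-33957670, chr3:90603520-90603769 and chr17:87635729-87635978, with E-boxes in capitals.
Snai1: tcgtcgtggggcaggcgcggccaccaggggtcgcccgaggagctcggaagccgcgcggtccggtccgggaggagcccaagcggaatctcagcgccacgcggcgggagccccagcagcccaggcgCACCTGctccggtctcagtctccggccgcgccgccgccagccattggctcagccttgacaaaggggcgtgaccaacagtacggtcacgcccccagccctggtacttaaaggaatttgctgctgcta
Twist1: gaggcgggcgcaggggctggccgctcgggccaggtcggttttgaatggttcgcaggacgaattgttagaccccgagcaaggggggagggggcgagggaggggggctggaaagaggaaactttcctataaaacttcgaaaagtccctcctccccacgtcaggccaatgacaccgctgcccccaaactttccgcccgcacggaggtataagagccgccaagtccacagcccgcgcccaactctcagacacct
S100a4: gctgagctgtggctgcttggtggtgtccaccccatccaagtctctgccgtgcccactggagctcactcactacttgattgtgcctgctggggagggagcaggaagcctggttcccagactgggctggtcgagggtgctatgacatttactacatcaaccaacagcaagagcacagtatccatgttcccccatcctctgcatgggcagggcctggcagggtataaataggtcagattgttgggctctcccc
Epcam: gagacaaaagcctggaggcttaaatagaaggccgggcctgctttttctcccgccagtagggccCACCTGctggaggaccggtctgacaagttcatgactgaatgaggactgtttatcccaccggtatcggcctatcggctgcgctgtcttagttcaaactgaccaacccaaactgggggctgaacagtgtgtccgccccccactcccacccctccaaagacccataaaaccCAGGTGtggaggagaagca

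The values are FPKM, the fragments of a gene per kilobase, scaled to the number of mapped fragments, so levels of different genes can be compared per length. The depth of each library is not known from these values. Between 11853 and 12792 gene names reached 1 FPKM in a sample. The files of the Normal and Tumor groups and those of the DMSO and C646 groups have different rows and were made separately, so tests were run within each set only, and levels set across all 4 groups are a description. Each DMSO or C646 replicate was the biggest tumor of 1 mouse. The normal and tumor samples also came from different glands and from pools or single mice, and these effects cannot be told apart from that of the tumor. The library kit did not mark strand, so reads of Twist2, Zeb1 and Zeb2 cannot be told apart from those of an antisense partner that overlaps their exons in GENCODE vM21, and S100a4 shares 302 exon bases with the predicted gene Gm42674.

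Of the EMT transcription factors, the Twist and Zeb genes were much lower in the tumors than in normal mammary gland, Snai2 was lower by a smaller amount, and Snai1 was not called. Vim, Cdh2 and S100a4 were lower too. In all, 8 of the 9 genes were lower in Tumor with an adjusted p under 0.05 and 0 were higher. Of all 13031 genes tested, 31.7% were called lower and 28.8% higher, by limma on log2(FPKM + 0.03125) with Benjamini-Hochberg adjustment. The same 8 genes did not overlap between the groups, each normal sample lying above each tumor, as did 35.8% of all genes tested, while 33.1% did not overlap in the other direction. Zeb1, Zeb2 and Cdh2 reached the filter of 1 FPKM in 3 samples only through the Normal group, so they could enter the test only by being higher there. Of the 6 genes that reached 1 FPKM in at least 1 tumor as well, 5 were called lower.

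**Figure D1:**
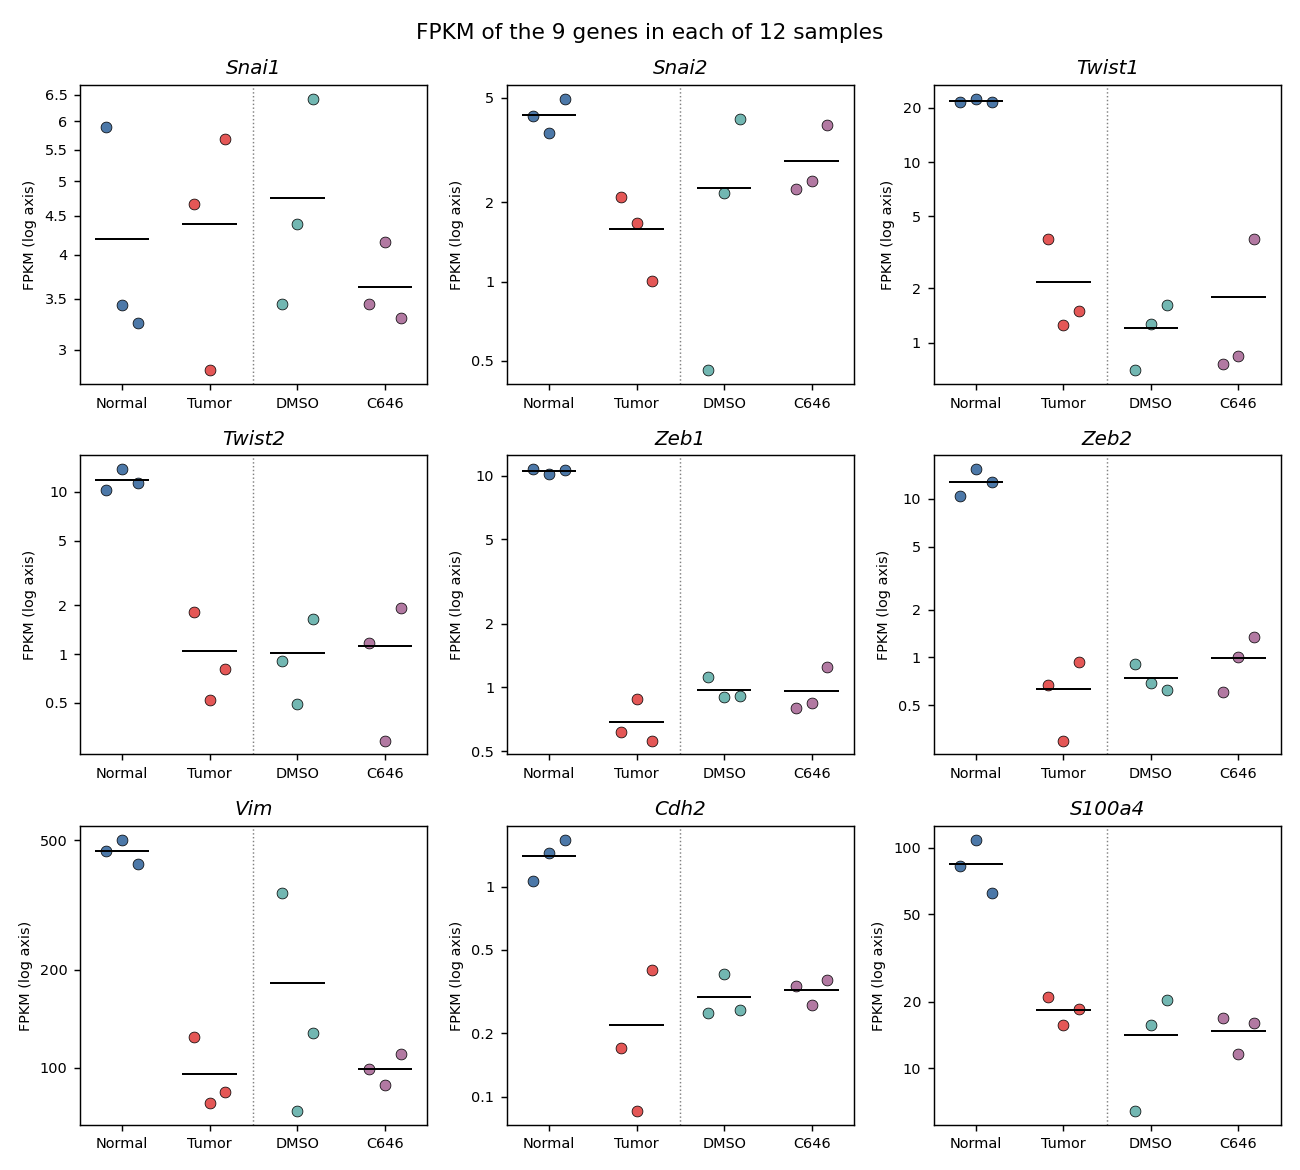
FPKM of each gene on a log axis, 1 panel per gene, with 1 point per sample, bars at the group means (n = 3) and a dotted line between the separately made sets of files. The normal samples lie above all 9 tumors for Twist1, Twist2, Zeb1, Zeb2, Vim, Cdh2 and S100a4, whereas the 4 groups overlap for Snai1.

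Snai1 was found at 5.90, 3.44 and 3.25 FPKM in the normal samples and at 4.67, 2.82 and 5.68 in the tumors. The groups overlapped, with the highest value in normal replicate 1 and the lowest in tumor replicate 2. The difference was 0.06 ± 0.34 (SE) on the log2 scale, with a 95% interval from -0.73 to 0.85 (adjusted p = 0.888 by limma). Its paralog Snai2 was found at 4.27, 3.68 and 4.96 FPKM in the normal samples and at 2.09, 1.66 and 1.00 in the tumors. All tumors lay below all normal samples, and the mean of the normal samples was 2.71 times that of the tumors. On the log2 scale the difference was -1.47 ± 0.30 (SE, adjusted p = 0.00458 by limma). In normal tissue both genes were among the lowest of the EMT factors, at means of 4.20 ± 1.48 (SD, n = 3) and 4.30 ± 0.64 FPKM.

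Twist1 was at 21.5, 22.5 and 21.5 FPKM in the normal samples and at 3.77, 1.26 and 1.503 in the tumors. It was the highest EMT factor of normal tissue, and its normal samples were nearly level, whereas tumor replicate 1 stood above the others. Its mean was 10.01 times higher in Normal, a log2 difference of -3.48 ± 0.39 (SE, adjusted p = 0.000272 by limma). Twist2 was at 10.3, 13.8 and 11.4 FPKM in the normal samples and at 1.81, 0.519 and 0.810 in the tumors. Again tumor replicate 1 had the highest value of its group, and no tumor came near the normal range. The mean was 11.3 times higher in Normal, a log2 difference of -3.63 ± 0.42 (SE, adjusted p = 0.000342).

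Zeb1 was at 10.8, 10.2 and 10.6 FPKM in the normal samples and at 0.617, 0.881 and 0.560 in the tumors. No tumor reached 1 FPKM. The mean was 15.4 times higher in Normal, with a log2 difference of -3.91 ± 0.23 (SE, adjusted p = 2.64e-05 by limma). The joined row of Zeb2 was at 10.5, 15.4 and 12.7 FPKM in the normal samples and at 0.673, 0.298 and 0.934 in the tumors. It had the largest difference of the 9 genes, -4.39 ± 0.40 (SE) on the log2 scale (adjusted p = 0.000122 by limma), and a mean 20.3 times higher in Normal. In GENCODE vM21 Mir5129 shares 5 exon bases with Zeb2, and Zeb2os, on the opposite strand, shares 653.

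Vim was by far the most abundant of the 9 genes per length. It was at 464.5, 502.8 and 424.3 FPKM in the normal samples and at 124.4, 78.2 and 84.2 in the tumors. The lowest normal sample was still well above the highest tumor. The mean was 4.85 times higher in Normal, a log2 difference of -2.31 ± 0.20 (SE, adjusted p = 0.000105 by limma). Among all 23704 names, Vim was in place 180 by its mean level in Normal and in place 1073 in Tumor, so its RNA remained abundant in the tumors.

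S100a4 was at 82.4, 108.9 and 62.3 FPKM in the normal samples and at 21.1, 15.7 and 18.5 in the tumors. Its normal samples spread more than its tumors, without overlap. The mean was 4.59 times higher in Normal, a log2 difference of -2.17 ± 0.22 (SE, adjusted p = 0.00020 by limma). Cdh2 was the lowest of the 9 genes in every group, at 1.07, 1.45 and 1.68 FPKM in the normal samples and at 0.171, 0.0852 and 0.403 in the tumors. All tumors lay below 1 FPKM. The log2 difference was -2.69 ± 0.56 (SE, adjusted p = 0.00463 by limma), and for so low a gene its size depends on the pseudocount, while the mean was 6.36 times higher in Normal.

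**Figure D2:**
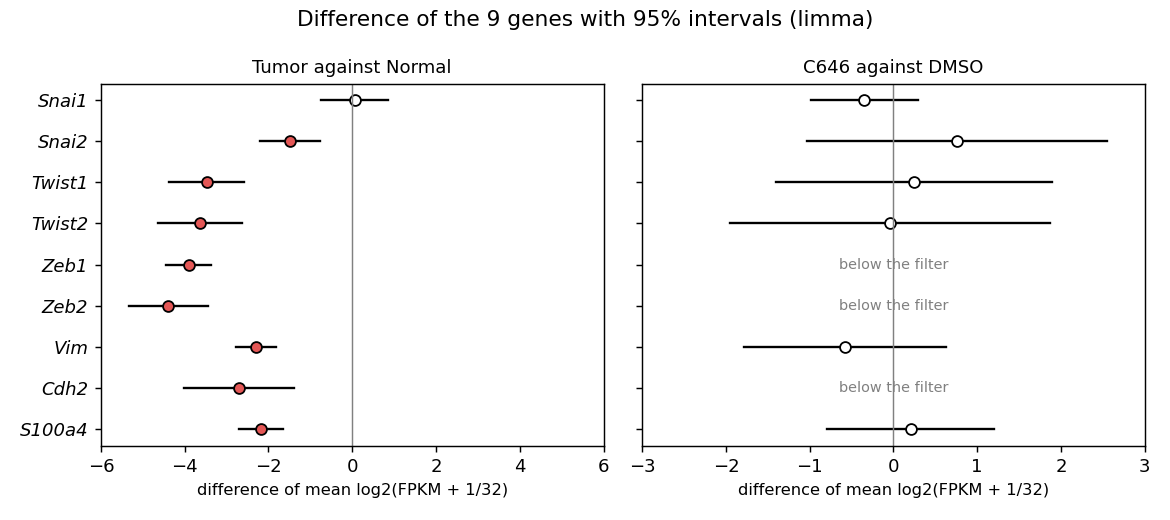
Difference of the mean log2(FPKM + 0.03125) of each gene with its 95% interval (limma), Tumor minus Normal on the left and C646 minus DMSO on the right, where the axis covers a smaller range. Filled points have an adjusted p under 0.05, which holds for 8 genes on the left, all below 0, and for 0 on the right, where Zeb1, Zeb2 and Cdh2 did not reach the filter.

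The 2 genes of a family were compared within each sample, as the log2 ratio of their FPKM, which does not depend on the scaling of a library. The ratio of Snai2 to Snai1 was -0.46, 0.10 and 0.60 in the normal samples and -1.15, -0.75 and -2.47 in the tumors. The groups did not overlap, and the exact permutation test (two-sided) gave p = 0.1, which is the lowest value possible with 3 samples per group. The ratio of Twist2 to Twist1 was -0.89 ± 0.18 (SD, n = 3) in Normal and -1.05 ± 0.18 in Tumor, so that Twist1 was the higher gene in all 6 samples, and the groups overlapped (exact permutation p = 0.5, two-sided). For Zeb2 to Zeb1 the ratio was 0.27 ± 0.32 (SD, n = 3) in Normal and -0.21 ± 1.13 in Tumor (exact permutation p = 0.7). With a pseudocount of 1 the difference of the Twist2 to Twist1 ratio turned from -0.15 to 0.24, so no direction can be read from it.

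The cadherins moved apart. Cdh1 was at 37.7, 25.6 and 28.1 FPKM in the normal samples and at 267.2, 171.0 and 181.3 in the tumors, a log2 difference of 2.75 ± 0.23 (SE, adjusted p = 7.99e-05 by limma). The log2 ratio of Cdh2 to Cdh1 was -5.11, -4.12 and -4.04 in the normal samples and -10.4, -10.5 and -8.71 in the tumors. The groups did not overlap, with a difference of means of -5.45, or -3.69 with a pseudocount of 1 (exact permutation p = 0.1 for the former). Tumor replicate 3 had the highest Cdh2 and the highest ratio of its group.

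**Figure D3:**
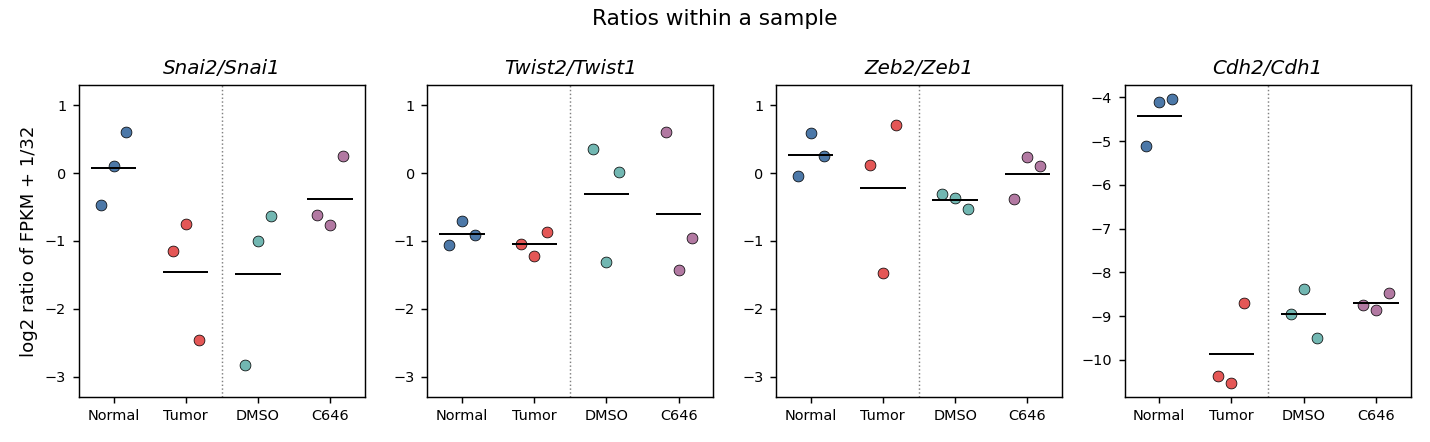
Log2 ratio of 2 genes within each sample (1 point per sample, bars at group means, n = 3), with the dotted line between the separately made sets of files and a lower axis range for the cadherins. Normal and Tumor do not overlap for Snai2/Snai1 and for Cdh2/Cdh1, and overlap for Twist2/Twist1 and Zeb2/Zeb1.

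Markers of the cell types that also use these genes differed between the groups in the same comparison. Of all genes tested there, 31.7% were called lower and 28.8% higher. Of 8 fibroblast markers 7 were lower in Tumor, and their summed level was 1798 to 1922 FPKM in Normal and 247.4 to 546.8 in Tumor. Dcn, which encodes the proteoglycan decorin, was at 335.9 to 418.3 FPKM in Normal and at 8.71 to 28.7 in Tumor, while Col1a1, a chain of collagen I, was not called. All 7 endothelial markers and 4 of 5 pericyte markers were lower, with sums of 179.5 to 201.4 and 64.7 to 80.5 FPKM in Normal against 32.2 to 60.1 and 18.1 to 21.9 in Tumor. All 5 T cell markers tested and all 6 B cell markers were lower, with sums of 215.0 to 291.3 and 238.7 to 302.8 FPKM in Normal against 0.721 to 2.105 and 0.457 to 0.829 in Tumor, where Ms4a1 and Cr2 were listed at 0 in every sample. Of these lymphocyte markers, 4 of 5 and 6 of 6 reached 1 FPKM in Normal alone, so their counts follow in part from the filter. All 7 adipocyte markers were lower, with a sum of 17910 to 22910 FPKM in Normal and 102.7 to 1344 in Tumor. Of 8 macrophage markers 4 were lower and 1, Cd14, was higher, with sums of 426.4 to 569.9 and 355.0 to 622.0 FPKM. All 5 skeletal muscle markers were higher in Tumor, at a sum of 1539 to 4364 FPKM against 10.6 to 81.6. Of 8 myoepithelial markers 4 were lower and 2 higher (203.3 to 349.5 FPKM in Normal, 145.9 to 257.7 in Tumor), of 8 luminal markers 1 was lower and 6 higher (435.4 to 909.6 against 2636 to 3582), and of 5 nerve and Schwann cell markers 4 were lower and 1 higher (149.8 to 157.7 against 159.1 to 207.7). The part of these differences in the values of the 9 genes was not tested.

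Set against the mean log2 level of the 8 fibroblast markers of the same sample, which itself was 2.98 lower in Tumor on the log2 scale, the 9 genes split. A gene at the same level in both groups comes out 2.98 higher in Tumor on this measure, and Snai1 itself differed by 0.06. The share of all genes without overlap on this measure was not computed. Snai1 and Snai2 were higher in Tumor relative to these markers, by 3.04 and 1.503, without overlap. Vim was higher by 0.67, also without overlap. Twist1, Twist2 and Zeb1 were lower relative to the markers, by -0.50, -0.66 and -0.93, without overlap. S100a4, Cdh2 and Zeb2 overlapped between the groups, at differences of 0.81, 0.28 and -1.41. Each gene without overlap had an exact permutation p of 0.1, the smallest possible, and the other p-values were 0.2 for S100a4 and Zeb2 and 1 for Cdh2. Against 8 macrophage markers, Snai1 was higher by 0.75 and the other 8 genes were lower, Vim by -1.61 and Snai2 by -0.78. The mean of the macrophage markers differed by only -0.69 between Tumor and Normal, so each gene moves down by the same amount. With a pseudocount of 1, Twist2 and Zeb1 turned to 0.11 and 0.02 against the fibroblast markers.

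**Figure D4:**
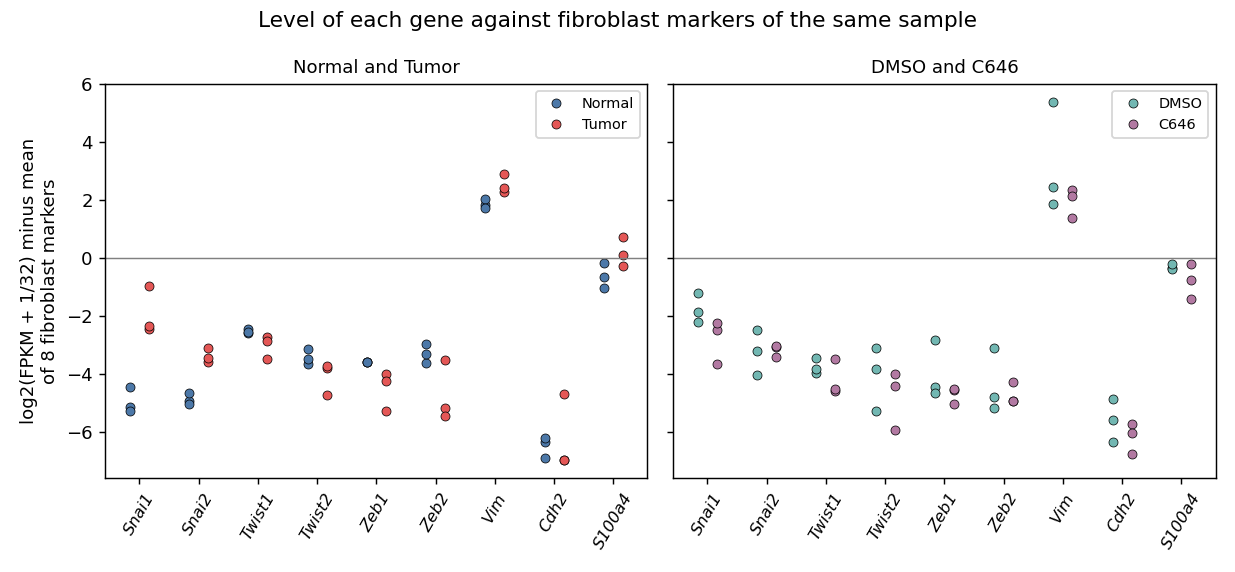
Log2(FPKM + 0.03125) of each gene minus the mean of 8 fibroblast markers in the same sample, 1 point per sample, for Normal and Tumor (left) and DMSO and C646 (right). The 3 tumors lie above the 3 normal samples for Snai1 and below them for Zeb1, while DMSO replicate 1 stands out for Vim at 5.41.

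Genes of the same pathway were taken from lists. Of 22 epithelial genes, 20 were higher in Tumor and 0 lower, with a median log2 difference of 2.62 against -0.02 over all genes tested. Of all genes tested, 28.8% were called higher and 31.7% lower. The epithelial genes Krt8, Krt18, Krt19, Epcam and Cdh1 are also among the luminal markers above, and Acta2 is also among the myoepithelial markers. The largest differences were those of Cldn3 and Cldn7, which encode tight junction claudins (3.54 and 3.45), Crb3, a polarity protein (3.30), and Marveld3, a tight junction protein (3.26). Epcam rose from 104.7 ± 39.8 (SD, n = 3) to 797.8 ± 178.9 FPKM, a log2 difference of 2.98. Tjp1 and Krt19 did not pass the test. Esrp1, Esrp2, Grhl2, Ovol1 and Ovol2, which are known to oppose EMT, were all among the higher genes. Of 21 other mesenchymal genes, 15 were lower and 5 higher, beside 31.7% and 28.8% over all genes tested, with a median of -2.21. Ddr2, a collagen receptor, fell by 5.32 on the log2 scale, Mmp9, a matrix protease, by 4.10, Fap, a protease of activated fibroblasts, by 2.82, and Acta2, smooth muscle actin, by 2.75. Ddr2 and Mmp9 reached 1 FPKM in Normal alone, so they could enter the test through that group only. The higher ones were Des (desmin, 1.80), Tnc (tenascin C, 1.74), Itgav (an integrin, 1.2) and Cd44 (0.76), next to Itgb1. Desmin is also a protein of skeletal muscle, whose markers were higher in the same tumors. The part of muscle in the values of Des was not tested.

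Of 10 other EMT transcription factors, 8 reached the filter, of which 4 were lower and 3 higher, where 31.7% and 28.8% of all genes tested were called lower and higher. The homeobox genes Gsc (-5.71), Prrx1 (-3.65) and Prrx2 (-1.43) and the Wnt pathway factor Lef1 (-5.43) fell, whereas the forkhead gene Foxc1 (3.12), Sox9 (2.68) and the ETS factor Etv4 (1.87) rose, all as log2 differences. Gsc and Lef1 reached 1 FPKM in Normal alone and so entered the test through that group only. Foxc1 went from 2.13 ± 0.85 (SD, n = 3) to 17.9 ± 2.1 FPKM. Lef1, which lymphocytes use too, went from 21.9 ± 4.9 to 0.506 ± 0.246 FPKM, and markers of T and B cells fell in the same samples. The part of lymphocytes in the values of Lef1 was not tested.

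Of 10 TGF-beta ligands, receptors and Smads, 2 were higher and 4 lower, beside 28.8% higher and 31.7% lower over all genes tested. The ligands Tgfb2 and Tgfb3 rose, by 2.70 and 2.54 on the log2 scale, to 16.9 ± 4.3 and 176.4 ± 79.0 FPKM (SD, n = 3). The receptor Tgfbr2 fell by 1.39 and the co-receptor Tgfbr3 by 1.75, and so did the signal transducer Smad2 (-0.99) and the inhibitory Smad7 (-0.81). Tgfb1, Tgfbr1, Smad3 and Smad4 were not called. Of 16 cofactors and partners of the EMT factors, 7 were higher and 3 lower, with a median of 0.39, and nothing particular to either list is read from its counts. Id2, an inhibitor of helix-loop-helix proteins, rose by 2.21 and Id1 by 1.24, although the latter was read from a row joined with H13, and Id3 fell by 2.15. The corepressor Ctbp2 rose by 1.52 and the demethylase Kdm1a, a partner of Snai1, by 1.23. Tcf4, a helix-loop-helix partner, fell by 1.48 and the corepressor Sin3a by 0.40.

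**Figure D5:**
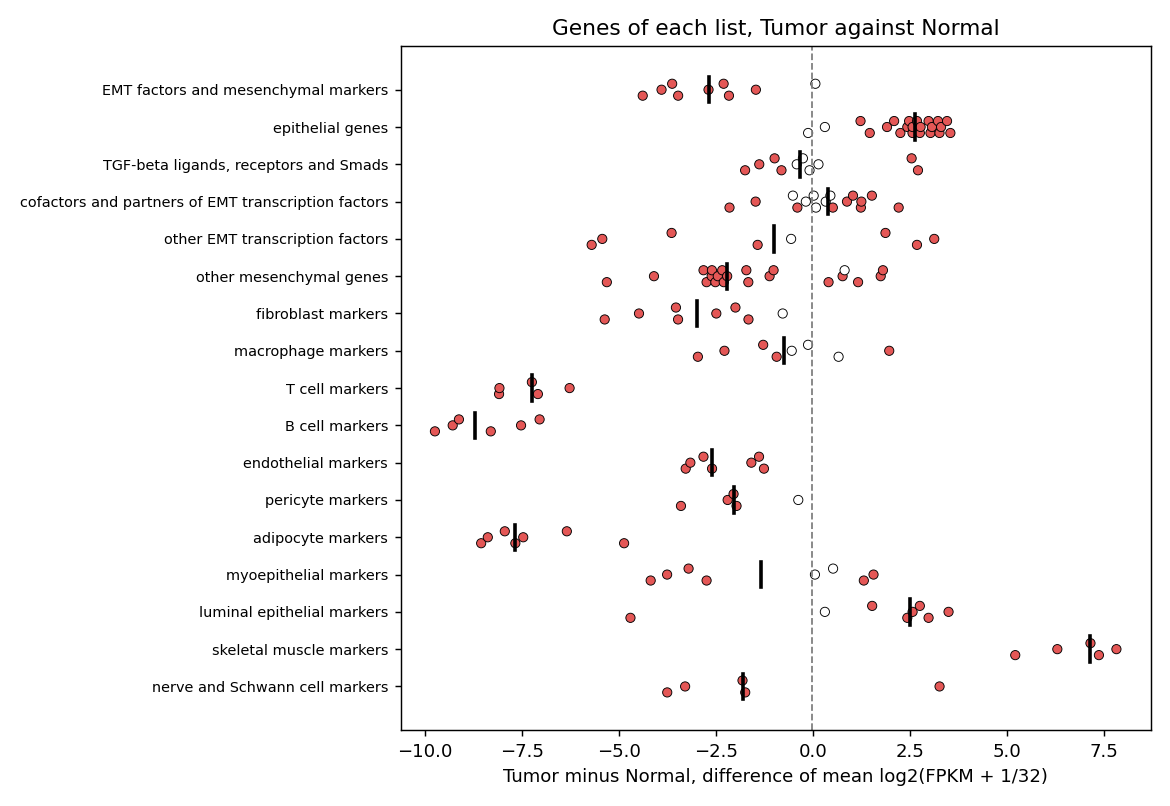
Difference of the mean log2(FPKM + 0.03125), Tumor minus Normal, for each tested gene of each list (filled points have an adjusted p under 0.05, thick bars are list medians), with the median of all genes tested dashed at -0.02. Of the 9 genes, 8 lie below the dashed line, as do the fibroblast, endothelial and pericyte markers, and Snai1 lies at 0.06, while the epithelial genes apart from Tjp1 (-0.13) lie above it.

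The genes whose log2 levels over the 12 samples were most like each of the 9 were sought among 10108 names with at least 1 FPKM in every sample. These values of Pearson's r are a description, since the points share groups and the files were made in 2 sets, and the contrast of Normal with the tumors carries much of them. For Twist1 these were Sparc (r = 0.991), Pla1a (0.990) and Apod (0.984), and for Twist2 they were Numbl (0.9751), Mxra8 (0.971) and Pdgfrb (0.968). For Zeb1 they were the joined row of Nrp1 and Mir1903 (0.992), Arhgap30 (0.990) and 4930402H24Rik (0.990). The joined row of Zeb2 was most like Cd53 (0.991), Cd84 (0.987) and Arhgap30 (0.984), of which Cd53 and Cd84 encode surface proteins of leukocytes. Vim was most like Sod3 (0.977), Pkdcc (0.9749) and Ap3m2 (0.971), and S100a4 most like Cxx1c (0.978), Gpsm3 (0.978) and Slc48a1 (0.973). Snai2 was most like Pald1 (0.916), Mical2 (0.909) and Sun2 (0.901). Snai1, which did not follow the contrast of Normal and Tumor, had lower values, with the joined row of Lincppara, Mirlet7b and Mirlet7c-2 at 0.785, Tagln2 at 0.780 and Rgs12 at 0.747. Cdh2 had a mean under 1 FPKM and was left out. Over the 9 tumors alone, r was 0.948 for Twist1 and Sparc, 0.933 for Vim and Sod3 and 0.673 for Zeb1 and Arhgap30.

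Twist1 was at 0.704 to 3.75 FPKM over the 6 injected tumors, Twist2 at 0.292 to 1.92, Zeb1 at 0.800 to 1.25 and the joined row of Zeb2 at 0.605 to 1.35. Cdh2 was at 0.249 to 0.385 FPKM and Snai1 at 3.30 to 6.43, while Vim ranged from 73.6 to 345.6 and S100a4 from 6.39 to 20.4. No value of Twist1, Twist2, Zeb1, Zeb2, Vim, Cdh2 or S100a4 in the 9 tumors came up to the normal samples. For Snai2 it did, since DMSO replicate 3 (4.15 FPKM) and C646 replicate 3 (3.92) were above the lowest normal sample (3.68). By group means, Twist1 was in the order Normal (21.8 FPKM), Tumor (2.18), C646 (1.79) and DMSO (1.2), and Twist2 in the order Normal (11.8), C646 (1.13), Tumor (1.05) and DMSO (1.01). Vim was in the order Normal (463.9), DMSO (182.5), C646 (99.6) and Tumor (95.6), and S100a4 in the order Normal (84.6), Tumor (18.4), C646 (14.8) and DMSO (14.2). Zeb1 was in the order Normal (10.5), DMSO (0.977), C646 (0.966) and Tumor (0.686), Zeb2 in the order Normal (12.9), C646 (0.985), DMSO (0.739) and Tumor (0.635), and Cdh2 in the order Normal (1.40), C646 (0.322), DMSO (0.297) and Tumor (0.220). For Snai2 the order was Normal (4.30), C646 (2.86), DMSO (2.26) and Tumor (1.58), and for Snai1 it was DMSO (4.76), Tumor (4.39), Normal (4.20) and C646 (3.63). Neighbours among the tumor groups overlapped in each of these orders, and of the groups that were not neighbours, DMSO lay above Tumor for Zeb1 and C646 above Tumor for Snai2, both across files made separately.

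C646 was compared with DMSO to ask which genes differ in tumors of mice injected with this p300 inhibitor. The RNA values do not measure how far p300 was inhibited in the tumors. Of the 9 genes, 6 reached the filter and 0 were called. Of all 12083 genes tested, 0% were called higher and 0% lower by limma, with 384 at an unadjusted p under 0.05. The groups overlapped for each of the 9 genes, while 4.04% of the tested genes did not overlap with C646 higher and 4.52% with C646 lower. Of the 6 genes tested, the intervals of Snai2, Twist1, Twist2, Vim and S100a4 include changes of more than 2-fold.

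Snai1 was at 3.45, 4.39 and 6.43 FPKM in the DMSO tumors and at 3.45, 4.15 and 3.30 in the C646 tumors. Of the C646 values, 3.30 lay below the DMSO range, 3.45 at its lower end and 4.15 within it. The log2 difference was -0.35 with a 95% interval from -0.98 to 0.29 (adjusted p = 0.990 by limma). Snai2 was at 0.460, 2.17 and 4.15 FPKM with DMSO and at 2.24, 2.42 and 3.92 with C646, a difference of 0.76 (interval -1.03 to 2.56). Twist1 was at 0.704, 1.28 and 1.62 FPKM with DMSO and at 0.764, 0.842 and 3.75 with C646, where 1 tumor stood above the rest, and its difference was 0.24 (-1.41 to 1.89). Twist2 was at 0.907, 0.493 and 1.64 FPKM with DMSO and at 1.17, 0.292 and 1.92 with C646, a difference of -0.04 (-1.95 to 1.87).

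Vim was at 345.6, 73.6 and 128.3 FPKM in the DMSO tumors and at 99.3, 88.9 and 110.5 in the C646 tumors. DMSO replicate 1 had the highest Vim of the 9 tumors, and the C646 values lay within the range of the other 2 DMSO tumors. The log2 difference was -0.58 with an interval from -1.79 to 0.63 (adjusted p = 0.990 by limma). S100a4 was at 6.39, 15.7 and 20.4 FPKM with DMSO and at 16.9, 11.7 and 15.98 with C646, a difference of 0.21 (-0.79 to 1.20). Zeb1, Zeb2 and Cdh2 did not reach 1 FPKM in 3 of the 6 tumors. Zeb1 was at 1.12, 0.900 and 0.910 FPKM with DMSO and at 0.800, 0.843 and 1.25 with C646, and the joined row of Zeb2 was at 0.902, 0.692 and 0.623 against 0.605, 1.00 and 1.35. Cdh2 was at 0.249, 0.385 and 0.258 FPKM with DMSO and at 0.336, 0.272 and 0.358 with C646. Fitted without the filter, the log2 differences of these 3 genes were -0.04 (interval -1.05 to 0.97), 0.35 (-0.95 to 1.65) and 0.12 (-1.19 to 1.43), none called, and these intervals too include changes of more than 2-fold.

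The DMSO tumors differed among themselves more than the C646 tumors did. Pearson's r of log2 levels over all genes was 0.9702 between DMSO replicates 1 and 2. Replicate 3 had lower values, 0.9539 with replicate 1 and 0.9585 with replicate 2. Between C646 replicates r was 0.9754 to 0.9770. These values are across genes, which are not independent replicates. Over all genes DMSO replicate 3 was thus the least like the other DMSO tumors, while replicate 1 stood out for several of the genes described here. DMSO replicate 1 combined the highest Vim of the 9 tumors with their lowest Snai2 (0.460 FPKM), Twist1 (0.704) and S100a4 (6.39). It also had the highest Sox9 (190.0 FPKM, against 14.4 to 45.8 in the other 8 tumors) and Foxc1 (61.5 against 16.5 to 31.4), and the lowest Krt5 (8.01 against 25.6 to 229.0), a keratin of basal and myoepithelial cells. Of the other myoepithelial markers, Krt14 (in a row joined with Krt16) and Trp63 were also lowest in it. Krt17, Acta2, Cnn1, Myh11 and Oxtr were not. Without DMSO replicate 1, the difference of Vim went from -0.58 to 0.03 (interval -0.57 to 0.63), that of Snai2 from 0.76 to -0.11 (-1.08 to 0.85), that of Twist1 to -0.09, that of S100a4 to -0.29 and that of Snai1 to -0.55 (-1.17 to 0.06). None was called.

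The other genes of the pathway were not called in this comparison either. The counts were 0 of 22 epithelial genes, 0 of 10 TGF-beta genes, 0 of 16 cofactors and partners, 0 of 6 other EMT transcription factors and 0 of 19 other mesenchymal genes that reached the filter, with median log2 differences between -0.28 and 0.02, against -0.01 over all genes. Cdh1 was at 139.1, 139.0 and 210.0 FPKM with DMSO and at 156.5, 140.9 and 138.2 with C646, a difference of -0.14 (interval -0.58 to 0.31). Epcam was at 627.2, 641.9 and 523.8 FPKM with DMSO and at 701.0, 554.5 and 599.6 with C646, a difference of 0.05 (-0.34 to 0.44). The log2 ratio of Cdh2 to Cdh1 was -8.96, -8.38 and -9.51 with DMSO and -8.73, -8.86 and -8.47 with C646 (exact permutation p = 0.5). That of Snai2 to Snai1 was -1.49 ± 1.17 (SD, n = 3) with DMSO and -0.38 ± 0.55 with C646 (exact permutation p = 0.2), and those of Twist2 to Twist1 and Zeb2 to Zeb1 overlapped as well (exact permutation p = 0.9 and 0.3). Of the cell type lists, 0 genes were called, though sums of adipocyte markers were 16.2 to 59.7 FPKM with DMSO and 70.4 to 319.4 with C646, those of fibroblast markers 216.8 to 473.2 and 353.8 to 735.1, and those of skeletal muscle markers 0.774 to 333.9 and 1.97 to 337.5. Macrophage markers summed to 329.3 to 441.8 and 379.5 to 506.5 FPKM, endothelial to 42.1 to 76.7 and 45.8 to 64.2, pericyte to 38.4 to 43.6 and 35.8 to 43.8, and nerve and Schwann cell markers to 186.7 to 254.6 and 260.5 to 314.0. T cell markers summed to 1.05 to 2.53 and 1.98 to 2.05 FPKM, and B cell markers to 0.566 to 0.843 and 0.122 to 0.414, with Ms4a1, Cr2 and Pax5 listed at 0 in all 6 tumors. Myoepithelial markers summed to 70.3 to 745.6 FPKM with DMSO and 114.4 to 124.5 with C646, and luminal markers to 2701 to 3151 and 2599 to 3076. Their part in the values of the 9 genes was not tested. Relative to the 8 fibroblast markers of the same sample, Snai1 was lower with C646 by -1.03 without overlap (exact permutation p = 0.1, the smallest possible). The other 8 genes overlapped. The mean log2 level of these markers was itself 0.69 higher with C646, and Snai1 taken alone differed by -0.35, with overlap. The share of all genes without overlap on this measure was not computed.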

How the data were processed

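RNA-seq was analysed in 12 samples of 4 groups (Normal, Tumor, DMSO and C646, n = 3 each), grouped by their labels. Per the submitters' processing notes and the study's methods, reads were trimmed with cutadapt and aligned to mm10 with TopHat2 2.1.1, and the authors obtained FPKM from Cufflinks 2.2.1, of which 1 table per sample was deposited. The gene annotation is not given in the sources used here. FPKM is scaled by length and library size, so no count test was used and the depth of a value is not known.

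In this work, the 1837 rows without a name in each Normal and Tumor file were dropped, and repeated names were summed. Each comparison was fitted over the whole table with limma (version 3.58.1, R 4.3.3, variance trend). Values were log2(FPKM + 0.03125), and a gene entered when 3 or more of the 6 samples reached 1 FPKM. P-values were adjusted after Benjamini and Hochberg, with a threshold of 0.05. Differences on this scale understate the change of low genes. Ratios within a sample used the two-sided exact permutation test. No pair of samples held identical values. Fits were checked on simulated data. Python 3.11.15 was used with pandas 2.3.3, numpy 2.4.6, matplotlib 3.10.9 and scipy 1.17.1.

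The 9 genes and all gene lists were chosen with earlier results of these data known. Named beside the 9 genes were Cdh1, Epcam, up to 4 called genes per list, direction and comparison with the largest difference, the 3 genes most like each of the 9, and cell type markers where needed. The list genes that were not called, the epithelial regulators, Itgb1, and the genes given for DMSO replicate 1 were named after their values were seen. The T cell marker Trac was not matched. Sequences are from RefSeq (GRCm38.p6), positions from GENCODE vM21.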

Additional observations from a re-analysis of the deposited data

How the results depend on the processing

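Alternatives were pseudocounts of 1 and 0.25, no filter, median-ratio scaling, quantile normalization, no trend in the variance, the replicate number as a block, and each sample left out in turn. For Tumor against Normal, 8 of the 9 genes were called lower under all 13 of these alternatives. Leaving out the joined row of Zeb2, a choice made after seeing the data, gives 7 of 8. This follows from the count, since Zeb2 was among the genes called, and is no separate check. Of 13031 genes tested (13023 with median-ratio scaling), 3467 to 4201 were called lower over the alternatives with the filter, and 4381 of 23704 without it. Zeb1, Zeb2 and Cdh2 passed the filter through Normal only, and the fits that left out a sample kept that filter. Quantile normalization moved the median of all genes by 0.12. With the replicate block, 3439 genes were called higher and 3827 lower, and 8 of the 9 genes lower. Deviations of samples with the same number correlated at -0.04, -0.10 and 0.01 in Normal and Tumor and at 0.17, 0.07 and 0.11 in DMSO and C646. These values do not settle whether the numbers pair samples, and the main fits did not use the numbers. The block gave 0 calls for C646 against DMSO, where the smallest adjusted p by limma was 0.0597, against 0.990 in the main fit. The difference of Snai1 between Tumor and Normal, never called, was -0.15 to 0.35 when single samples were left out. Under quantile normalization it was 0.48, against 0.06 in the main fit, and that of Snai2 was -0.95, against -1.47.

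For C646 against DMSO, 6 genes were called higher and 9 lower without the filter, and 0 higher and 11 lower without DMSO replicate 2, none of them among the 9. Leaving out single samples gave 0 to 11 genes lower. Over these fits the difference of Snai2 was -0.11 to 1.43, that of Twist1 -0.49 to 0.64, that of Twist2 -0.59 to 0.71, that of Vim -1.09 to 0.029 and that of S100a4 -0.29 to 0.55, none called. That of Twist2 was 0.041 with a pseudocount of 1 and 0.013 with 0.25. Against macrophage in place of fibroblast markers, the Tumor minus Normal values of Snai2 and Vim turned to -0.78 and -1.61 and those of S100a4 and Cdh2, whose groups overlapped against fibroblast markers, to -1.48 and -2.002, and with a pseudocount of 1 those of Twist2 and Zeb1 turned to 0.11 and 0.022 against fibroblast markers. The mean log2 level of the markers differed between Tumor and Normal by -2.98 for fibroblast and by -0.69 for macrophage markers. Changing the marker list therefore moves every gene by the same amount, and these turns are not particular to single genes. The depth of a value is not known, so what it limits for genes under 1 FPKM cannot be given.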
